A study of Mus musculus with 18 samples.

Results

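The cytosolic ribosome is built from ribosomal RNA and a fixed set of small basic proteins, and the genes for those proteins are the members described here. They were taken as the rows whose mouse gene symbol has the form Rps or Rpl followed by a number, with Rplp0, Rplp1, Rplp2 and Rpsa. The rule uses the symbol alone and no measured value. It found 81 of 13784 genes, in all 3 of the authors' deposited tables: 31 genes of the small subunit, 43 of the large subunit, 3 of the stalk and 4 paralogs (Rpl7l1, Rpl22l1, Rps4l and Rps27l). Other genes that encode ribosomal proteins or relatives of them, Fau, Rack1 and Rpl36al among them, fall outside the rule and are given separately.

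Bulk RNA was measured from the cortex of 18 mice aged 4 to 6 months. The groups were Control Saline (4 mice), Control LPS (5 mice), Astrocyte cKO Saline (4 mice) and Astrocyte cKO LPS (5 mice). The cKO mice carry an astrocyte-specific conditional knockout of Chd8, a chromatin remodeller, and the Cre driver and the exact control genotype are not given in the sources used here. LPS, lipopolysaccharide from bacterial outer membranes, was injected into the abdominal cavity at 5 mg/kg, and brain tissue was taken 72 h later. Every title carries the word Saline, so groups were read from the genotype label and checked against the label for treatment. The labels number the mice within a group and state nothing on litters or batches, so p-values measure the spread between these mice.

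The deposited values are comparisons of groups: a mean log2 CPM (reads of a gene scaled to a common total), a log2 fold change and an edgeR p-value with its false discovery rate (FDR) for each gene. Values per library were not analysed here, and library depth is unknown. A gene is called changed below at an FDR under 0.05. Standard errors (SE) were derived from the deposited fold change and F statistic, and levels per group were back-calculated, with no spread between mice. Chd8 itself differed between the genotypes after LPS by 0.02 ± 0.05 on the log2 scale (SE, FDR 0.901), so the deletion was not visible in bulk cortex in that comparison. The sex-linked genes Ddx3y and Uty were called higher after LPS in controls in the authors' deposited table (FDR 0.0351 and 0.0377); in Control Saline mice their log2 CPM, back-calculated, was -7.19 and -7.35. In Control LPS, cKO Saline and cKO LPS mice Ddx3y stood at 3.68, 5.87 and 5.71 and Uty at 2.47, 4.80 and 4.30. Xist, also sex-linked, stood at 7.47 in Control Saline, 7.33 in Control LPS, 4.35 in cKO Saline and 5.91 in cKO LPS mice. Sex-linked levels thus differed between the groups compared, and the part of sex in the comparisons was not tested. No label used here states a sex. In bulk tissue, fewer cells of a type and less RNA per cell cannot be told apart.

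Ribosomal proteins are needed in fixed proportions in each ribosome. Many of their mRNAs begin with a C followed by an unbroken run of pyrimidines, the 5′ terminal oligopyrimidine (TOP) motif. Through this motif the kinase complex mTORC1 and the RNA-binding protein LARP1 control their translation and stability. In brain, local and activity-dependent protein synthesis in neurons and glia draws on this machinery.

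The windows at the annotated starts of members on which the results turn are shown because the TOP motif is the sequence feature that the family is known for. Each runs from 10 bases before the RefSeq start of the transcript through its first 20 bases, 5′ to 3′ on the gene's strand, build GRCm38.p6. A match is a C followed by at least 4 pyrimidines (C or T) whose C lies within 10 bases of that start. Capitals mark 1 match in each window, the one whose C is the first transcribed base where there is one and otherwise the one furthest upstream, and further matches, also those that run into it, are left in lower case. The first 3 genes were called higher after LPS in cKO mice and hold the motif exactly at the annotated start.
Rpl28, chr7:4792955-4792984, plus strand: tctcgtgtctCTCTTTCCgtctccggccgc
Rps10, chr17:27635225-27635254, minus strand: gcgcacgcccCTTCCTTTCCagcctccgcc
Rps27, chr3:90213629-90213658, minus strand: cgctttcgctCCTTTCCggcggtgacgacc

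The next 3 were called higher in the same comparison and hold the motif near the start but not at it.
Rpl7a, chr2:26910797-26910826, plus strand: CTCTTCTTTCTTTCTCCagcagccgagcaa
Rps9, chr7:3704031-3704060, plus strand: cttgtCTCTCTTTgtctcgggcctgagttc
Rps26, chr10:128626487-128626516, minus strand: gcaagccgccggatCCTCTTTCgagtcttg

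Rps15 and Rps16 were also called higher and hold no match in this window.
Rps15, chr10:80292421-80292450, plus strand: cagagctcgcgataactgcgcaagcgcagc
Rps16, chr7:28350679-28350708, plus strand: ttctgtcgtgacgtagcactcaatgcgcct

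Of the last 3, Rps6 and Rplp2 hold the motif at the start and Rpl7l1 holds none, and none of them was called in any table.
Rps6, chr4:86857348-86857377, minus strand: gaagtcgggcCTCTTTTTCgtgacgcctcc
Rplp2, chr7:141447641-141447670, plus strand: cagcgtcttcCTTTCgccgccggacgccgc
Rpl7l1, chr17:46782637-46782666, minus strand: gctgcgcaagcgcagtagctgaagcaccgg

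RefSeq promoter windows were matched to 60 of the 81 members, with 71 annotated starts. The motif stood exactly at 13 of these starts (18.3%), against 823 of 32851 starts of all RefSeq genes (2.51%). Within 10 bases it was found at 53.5% of member starts and 30.7% of all starts. The search read the transcript's strand only, and a start that is annotated a few bases off moves a gene from the first count to the second. Among the members called higher after LPS in cKO mice, 3 of 8 with a window held the motif at a start, and among the members that were not called 10 of 52 did.

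The first question is how LPS changed these genes in control mice. There, 1 of 81 members was called, against 9.76% of all genes (6.46% higher and 3.31% lower). The median log2 fold change of the members was 0.00, with 41 above 0 and 40 below, and 73 of them lay within 0.2 of 0 (90.1%, against 66.9% of all genes). At an unadjusted p under 0.05 there were 18 members, 9 higher and 9 lower, against 28.9% of all genes (16.2% higher and 12.7% lower).

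The called gene was Rpl29, a large subunit protein at the ribosome's surface. Its back-calculated level was 90.6 CPM in Control Saline and 106 CPM in Control LPS mice. In the authors' deposited table Rpl29 rose by 0.23 ± 0.06 on the log2 scale (SE, FDR 0.0411). With a required fold of 1.2 it was no longer called.

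Among the small subunit genes of control mice none was called. Rps26, a protein near the mRNA exit channel, stood at 48.2 CPM after saline and 59.3 CPM after LPS, a log2 fold change of 0.30 ± 0.09 (FDR 0.0567 in the authors' deposited table). Rps6, the protein that S6 kinase phosphorylates downstream of mTORC1, stood at 184 and 170 CPM, a change of -0.12 ± 0.05 (FDR 0.184). Rpsa, which is also known as the laminin receptor, stood at 261 and 264 CPM, a change of 0.02 ± 0.09 (FDR 0.915). Neither of the latter passed the test.

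The stalk recruits the translation factors that hydrolyse GTP, and is formed by Rplp0 with the acidic proteins Rplp1 and Rplp2. In control mice Rplp2 stood at 72.5 CPM after saline and 61.2 CPM after LPS, and Rplp1 at 235 and 199 CPM. Their log2 fold changes in the authors' deposited table were -0.25 ± 0.07 (FDR 0.0535) and -0.24 ± 0.08 (FDR 0.0856). Rplp0 stood at 147 and 148 CPM, a log2 fold change of 0.01 ± 0.06 (FDR 0.931). None of the 3 was called. The member lowest in controls by value was Rpl3, which lies near the peptidyl transferase centre, at 345 CPM after saline and 249 CPM after LPS. Its log2 fold change was -0.47 with an SE of 0.20, so it did not pass the test either (FDR 0.163 in the authors' deposited table).

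The same question was asked in cKO mice. Here 13 of 81 members were called, 12 higher and 1 lower. Of all genes 19.5% were called, 10.9% higher and 8.52% lower, so the members' share lay near the background. The median log2 fold change of the members was 0.06, with 52 above 0, and 66 lay within 0.2 of 0 (81.5%, against 59.8% of all genes). At an unadjusted p under 0.05 there were 24 members, 21 higher and 3 lower, against 35.8% of all genes (19.1% higher and 16.7% lower).

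Markers of other cells changed in the same tables. Of 14 microglia markers, 12 were called in controls, all higher, with a median of 1.15, and 11 in cKO mice, 10 higher and 1 lower, with a median of 0.79. Of 10 endothelial markers, 8 were called in controls and 6 in cKO mice, all higher, with medians of 0.70 and 0.39. The summed microglia markers stood at 407 and 735 CPM in Control Saline and Control LPS mice and at 411 and 601 CPM in the cKO groups. The summed endothelial markers stood at 217 and 388 CPM and at 216 and 350 CPM. Of 12 astrocyte markers, 4 were called in controls, 1 higher and 3 lower, and 5 in cKO mice, 1 higher and 4 lower. Of 12 neuron markers, 2 were called in controls, 1 higher and 1 lower, and 5 in cKO mice, 4 higher and 1 lower. Of 10 oligodendrocyte markers, 0 were called in either. Of 10 striatal markers, 0 were called in controls and 2 in cKO mice, higher. Of the 3 measured choroid plexus markers, 0 were called in either, and all 3 were below 0 in both. Their summed level stood at 114 CPM in Control Saline and 11.4 CPM in Control LPS mice, and at 117 and 22.1 CPM in the cKO groups. Among them Ttr was at -4.03 ± 1.96 in controls and -2.83 ± 1.86 in cKO mice. The part of these cells in the members' values was not tested.

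The split between higher and lower calls moved with how a dependence of fold change on GC content and transcript length was handled. With a smooth trend on both removed and centred on its median, 10 members were called, 10 higher and 0 lower. With the mean level of that trend removed as well, 8 were called, 4 higher and 4 lower. The matching shares over all genes are not given here, so these counts have no background beside them. Rps16, Rps26 and Rpl28 were among the members called higher in all 3 versions.

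Of the 31 small subunit genes, 7 were called in cKO mice, all higher, which is 22.6%. Of all genes 19.5% were called, 10.9% higher and 8.52% lower. The total thus lay near the background, and the split by direction was not tested. Rps16, which contacts the tRNA held in the ribosome, stood at 12.0 CPM after saline and 67.6 CPM after LPS, and its log2 fold change of 2.50 ± 0.41 was the highest of all members (FDR 0.00718 in the authors' deposited table). It is described further on, because its spread stood apart. Rps26 stood at 48.2 CPM after saline and 64.0 CPM after LPS, a rise of 0.41 ± 0.09 (FDR 0.0162). Rps29 rose by 0.29, Rps10 by 0.29, Rps15 by 0.25, Rps27 by 0.20 and Rps9 by 0.18 on the log2 scale in the authors' deposited table, with FDRs from 0.0175 to 0.0349. Apart from Rps16, the called small subunit genes thus changed by less than a factor of 1.5. Rps6 stood at 190 and 183 CPM, a change of -0.05 ± 0.06 (FDR 0.549), and Rpsa at 250 and 273 CPM, a change of 0.13 ± 0.11 (FDR 0.436).

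Of the 43 large subunit genes, 5 were called in cKO mice, 4 higher and 1 lower, which is 11.6% against 19.5% of all genes. Rpl28 stood at 70.7 CPM after saline and 87.4 CPM after LPS, a rise of 0.31 ± 0.07 (FDR 0.0166 in the authors' deposited table). Rpl7a rose by 0.23 ± 0.06 (FDR 0.0253), and Rpl29 by 0.22 ± 0.05 (FDR 0.0162). Rpl23a, at the mouth of the exit tunnel for the nascent chain, stood at 167 CPM after saline and 152 CPM after LPS and fell by 0.14 on the log2 scale (FDR 0.0459 in the authors' deposited table). Rpl30 was lowest by value at -0.23, but its SE of 0.18 left it uncalled (FDR 0.385). None of the 3 stalk genes was called: Rplp0 was at 0.10 ± 0.08, Rplp1 at -0.12 ± 0.05 and Rplp2 at -0.08 ± 0.09, with FDRs from 0.148 to 0.549.

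**Figure D1:**
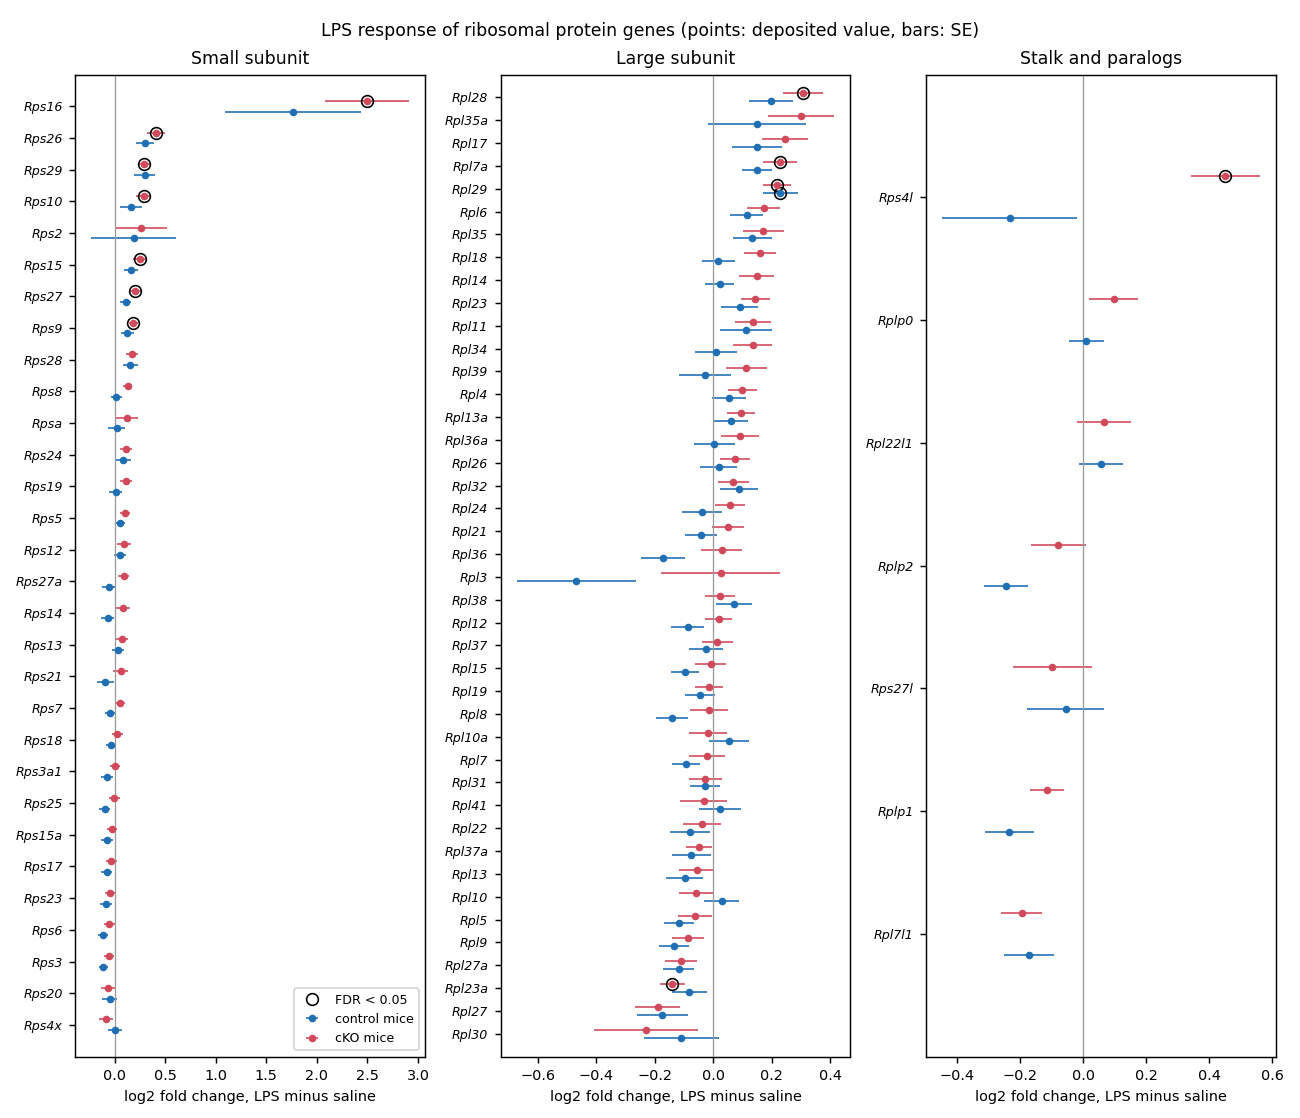
Log2 fold change after LPS (horizontal axis) for ribosomal protein genes in control mice (blue) and cKO mice (red), by subunit; points are values of the authors' deposited tables, bars are SE and open circles mark an FDR below 0.05. Not all members are plotted. In controls the circled point is Rpl29, circled points are otherwise those of cKO mice, and Rps16 stands apart at 1.77 and 2.50.

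The paralogs are duplicated relatives of core ribosomal proteins, and 1 of the 4 was called. Rps4l, a relative of the X-linked gene Rps4x, stood at 9.41 CPM in Control Saline, 8.00 CPM in Control LPS, 9.84 CPM in cKO Saline and 13.5 CPM in cKO LPS mice. In the authors' deposited tables its log2 fold change after LPS was -0.23 ± 0.21 in controls (FDR 0.507) and 0.45 ± 0.11 in cKO mice (FDR 0.0228). It was thus highest in the cKO LPS group, while the other 3 groups lay close together. Rpl7l1, a relative of Rpl7, was at -0.17 ± 0.08 in controls and -0.20 ± 0.07 in cKO mice (FDR 0.190 and 0.0621). Rps27l, a relative of Rps27 that is a known p53 target, was at -0.06 ± 0.12 and -0.10 ± 0.13 (FDR 0.799 and 0.602). Rpl22l1, a relative of Rpl22, was at 0.06 ± 0.07 and 0.06 ± 0.09 (FDR 0.630 and 0.622).

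The tables of the LPS responses in controls and in cKO mice share no library, so their values can be set side by side. Across the 81 members, Pearson's r was 0.91 and Spearman's rho 0.77; without Rps16 they were 0.67 and 0.76 over 80 members. These are descriptions across genes, which are not independent replicates and share their library preparation and counting. The 1 member called in controls was also called in cKO mice, which is 100% of the controls' list and 7.69% of the cKO list. Over all genes, 725 were called in both tables, which is 53.9% of the controls' list and 27.0% of the cKO list. Of the 12 members called higher in cKO mice, 11 had a value above 0 in controls. The matching share over all genes is not given here, so the count is not shown to be particular to the family.

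Whether the responses differed was tested for each gene by dividing the gap between its log2 fold changes by the SE of that gap, with Benjamini-Hochberg adjustment over all genes. No member passed, against 0.00725% of all genes, and 1 member had an unadjusted p under 0.05, against 6.52%. That member was Rps4l, whose response was higher in cKO mice by 0.68 ± 0.27 on the log2 scale (FDR 0.627). The difference for Rpl3 was 0.49 ± 0.31 (FDR 0.831), and for Rpl36 0.20 ± 0.11 (FDR 0.798). For Rps16 it was 0.73 with an SE of 1.03 (FDR 0.938), the highest value among members and the widest error. Of the 81 members, 66 had a value above 0 (81.5%, against 49.9% of all genes) and the median was 0.06. They were measured in the same mice, so their shared direction is 1 observation and not 81. The 13 calls in cKO mice and the 1 call in controls are therefore not shown to be a difference between genotypes.

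**Figure D2:**
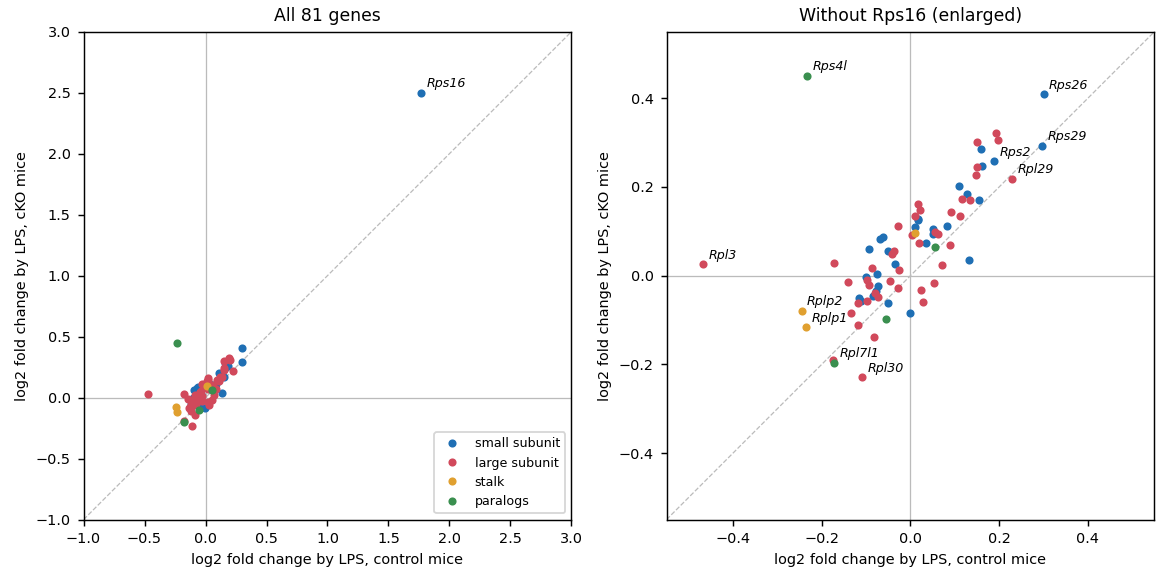
Log2 fold change after LPS in control mice (horizontal axis) against cKO mice (vertical axis), 1 point per gene, coloured by subunit; the left panel holds all 81 genes and the right panel enlarges the range without Rps16. Of the 81 points, 66 lie above the dashed line of equal response (81.5%, against 49.9% of all genes). Among them are Rps4l and Rpl3 at control values of -0.23 and -0.47.

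Rps16 was set apart from the rest by its error as well as its value. Its levels were 19.0 CPM in Control Saline, 64.6 CPM in Control LPS, 12.0 CPM in cKO Saline and 67.6 CPM in cKO LPS mice. Both LPS groups were thus several times above both saline groups. The log2 fold change in controls was 1.77 with an SE of 0.67, which did not pass the test (FDR 0.118 in the authors' deposited table). Set against genes of a mean log2 CPM from 5 to 9, this SE was at the 99.8th percentile in controls, and the SE of 0.41 in cKO mice was at the 99.8th percentile too. Between the LPS groups of both genotypes, the SE of Rps16 was 0.05, with a difference of 0.12 (FDR 0.420). The wide error thus appeared in both tables that hold saline mice and not in the table that holds LPS mice alone.

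The pseudogene row Rps16-ps2 shares 37.0% of the 50-base words of Rps16, and its values were 1.87 in controls and 1.71 in cKO mice, with FDRs of 0.219 and 0.137 in the authors' deposited tables. The part of reads assigned to one or the other copy was not tested. Rps6-ps4, which shares 84.6% of the words of Rps6, was called lower in controls at -0.66 (FDR 0.0121), while Rps6 itself was at -0.12 and was not called. In all, 20 members had another row in the tables that shares more than 10% of their 50-base words, and 29 members shared at least 50% with any annotated gene. Of the 52 members under 50%, 9 were called in cKO mice, 9 higher and 0 lower, against the 19.5% of all genes given above (10.9% higher and 8.52% lower).

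**Figure D3:**
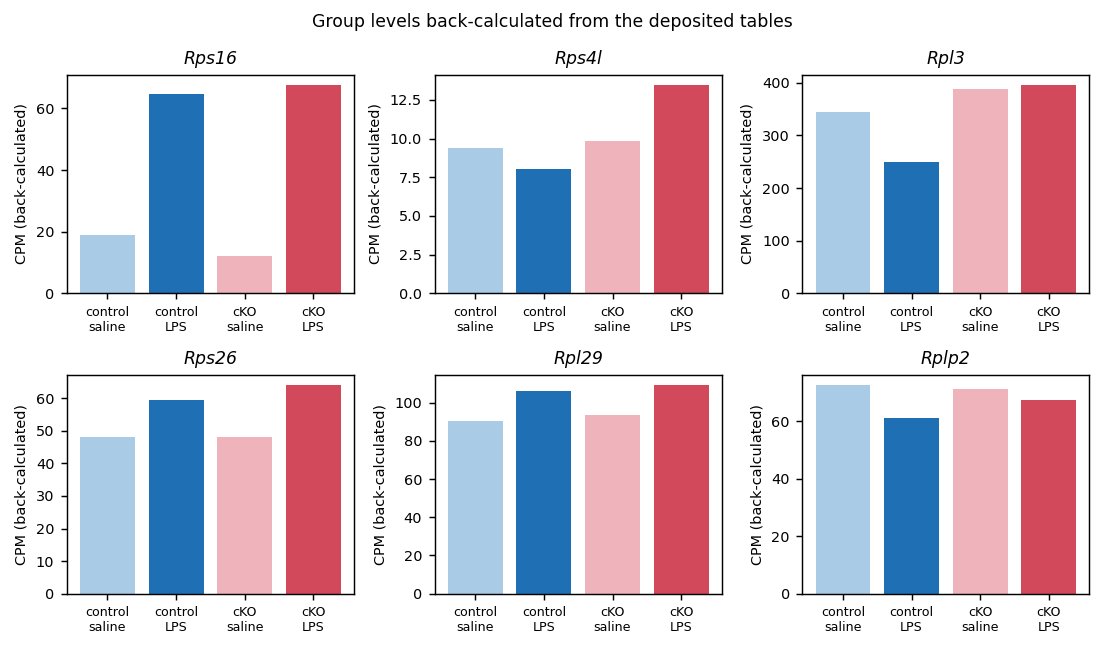
Back-calculated level in CPM (vertical axis, from 0) of 6 members in the 4 groups; bars are group estimates from the authors' deposited tables and have no error, because values per library were not analysed here. Rps16 stood at 19.0 and 12.0 CPM after saline and at 64.6 and 67.6 CPM after LPS, and Rps4l reached 13.5 CPM in cKO LPS mice.

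The third comparison set cKO mice against controls after LPS. No member was called at an FDR under 0.05, against 0.00725% of all genes, which is 1 gene; the lowest FDR of a member was 0.243. At an unadjusted p under 0.05 there were 14 members by edgeR, all of them higher in cKO mice, against 12.3% of all genes (5.98% higher and 6.33% lower). Of the 81 members, 73 had a value above 0 (90.1%), against 50.5% of all genes. Their median was 0.10 on the log2 scale, with a range from -0.08 for Rps4x to 0.85 for Rps4l. The median SE of a single member was 0.06. Most members thus lay above 0, 76 of the 81 within 0.2 of it, and no single gene passed the test. They were measured in the same 10 mice, so their shared direction is 1 observation and not 81.

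The small subunit had 28 of 31 members above 0 with a median of 0.11, and the large subunit 39 of 43 with a median of 0.10. All 3 stalk genes were above 0, Rplp0 at 0.11, Rplp1 at 0.15 and Rplp2 at 0.17 (FDR 0.460 to 0.597 in the authors' deposited table). Rps4l had the lowest FDR of the members, with a difference of 0.85 ± 0.20 (FDR 0.243). Rps7, a small subunit protein that also binds the p53 regulator MDM2, differed by 0.16 ± 0.05 (FDR 0.292). Rpl3 differed by 0.73 ± 0.22 (FDR 0.292), with 249 CPM in Control LPS and 396 CPM in cKO LPS mice. Rps6 was at 0.12 ± 0.06 (FDR 0.426), Rpsa at 0.07 ± 0.05 (FDR 0.650), Rpl22l1 at 0.03, Rps27l at 0.00 and Rpl7l1 at -0.03. There were 8 members below 0, among them Rpl10, Rpl10a, Rpl23a, Rpl27, Rpl7l1, Rps20 and Rps4x.

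With the trend on GC content and length removed, 66 of 81 members stayed above 0 and the median was 0.06, and with its mean level removed too 65 were above 0 with a median of 0.05. Among the 52 members that share under 50% of their 50-base words with other genes, 49 were above 0. For cKO against control mice after saline only an estimate from the other tables can be had, with no test. In it 68 of 81 members were above 0 (84.0%, against 52.7% of all genes), with a median of 0.04. The estimate includes the difference between genotypes after LPS, so it is not independent of that comparison. For the sex-linked genes Ddx3y, Uty and Xist the same estimate was 12.4, 11.3 and -2.91. The part of sex in it was not tested. The summed level of the members was 9796 CPM in Control Saline, 9756 CPM in Control LPS, 10057 CPM in cKO Saline and 10510 CPM in cKO LPS mice. The family thus took about 1% of the counts in each group, and most in the cKO LPS group.

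Markers of other cells and regions moved in the same comparison. All 14 microglia markers and all 10 endothelial markers were below 0 in cKO mice after LPS, and all 10 striatal markers and all 3 measured choroid plexus markers were above 0. Of 12 astrocyte markers 7 were above 0, and of 12 neuron markers 4. None of these genes was called. Summed over the list, striatal markers stood at 424 CPM in Control LPS and 611 CPM in cKO LPS mice, and microglia markers at 735 and 601 CPM. No measured marker of these lists was at 0 in any group. The 4 members on the X chromosome, Rpl10, Rpl36a, Rpl39 and Rps4x, differed by -0.04, 0.10, 0.07 and -0.08. The part of regional dissection, cell composition or sex in the members' values was not tested.

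**Figure D4:**
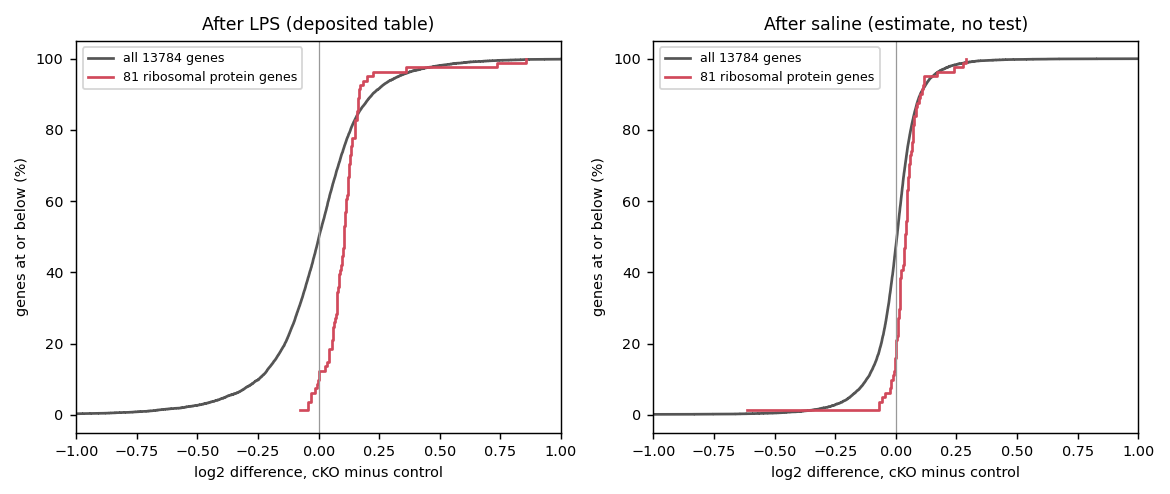
Share of genes at or below a given log2 difference between cKO and control mice (vertical axis, percent), for the 81 ribosomal protein genes (red) and all 13784 genes (grey), after LPS from the authors' deposited table (left) and after saline as an estimate without a test (right). The red curve lies to the right of the grey one after LPS, where 73 of 81 genes are above 0 and no gene of the family was called.

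Few members had wide errors. The reference used was a broad band of levels and was not matched to the level of each member. Against genes of a mean log2 CPM from 5 to 9, the percentile of the SE in controls, in cKO mice and between genotypes was 99.8, 99.5 and 99.1 for Rps2. For Rpl3 it was 98.9, 99.1 and 98.6, and for Rpl30 it was 94.4, 98.7 and 98.4. Rps2, Rpl3 and Rpl30 were thus wide in every table, unlike Rps16. Rps4l was at 99.1, 91.7 and 98.1 and Rps27l at 93.6, 95.1 and 97.2, but the mean levels of both lie below that band. Rps2, a small subunit protein at the mRNA entry, had a log2 fold change of 0.19 ± 0.42 in controls and 0.26 ± 0.26 in cKO mice, and shares 71.3% of its 50-base words with other genes. Across the 81 members, Spearman's rho between SE and the share of such words was -0.06 in controls, -0.01 in cKO mice and 0.09 between genotypes, and between SE and mean level it was -0.45, -0.37 and -0.44. These correlations are descriptions across genes of the same libraries. Between the log2 fold change and GC content, rho was 0.14, 0.27 and 0.26 over the 80 members without Rps16.

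**Figure D5:**
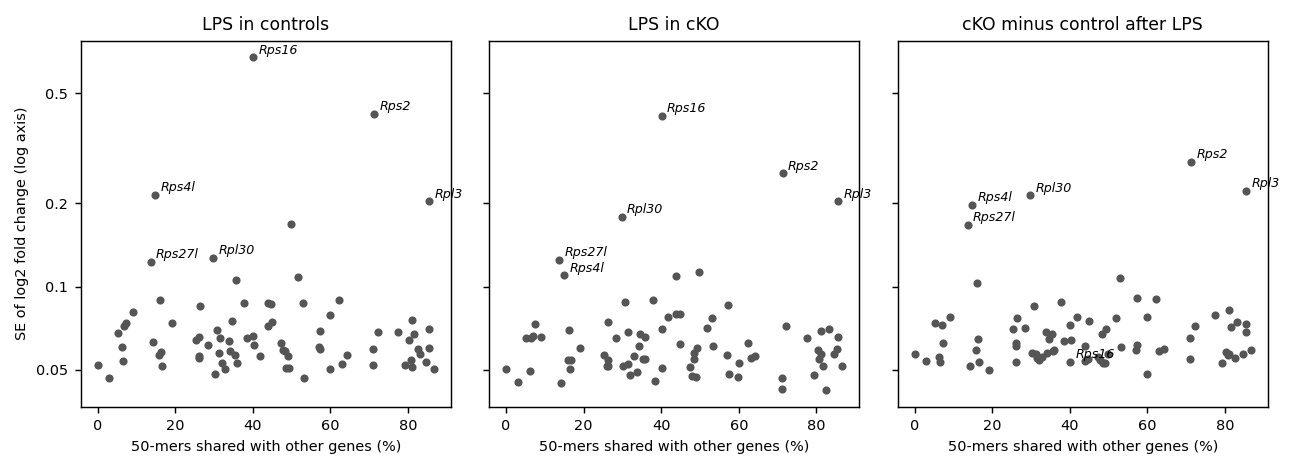
SE of the log2 fold change (vertical log axis) against the percentage of a gene's 50-base words that other annotated genes share (horizontal axis), 1 point per gene, in each of the 3 tables. Rps16 has the widest SE in both tables with saline mice (0.67 and 0.41) and an ordinary one of 0.05 between the LPS groups.

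The other genes of the pathway were taken as lists, whose counts stand against 9.76% of all genes called in controls and 19.5% in cKO mice. Of the 4 ribosomal protein genes outside the rule, none was called in controls and 1 in cKO mice: Fau, which encodes a small subunit protein fused to a ubiquitin-like one, rose by 0.21 (FDR 0.0238 in the authors' deposited table). Of 18 other TOP mRNAs, 3 were called in controls, 2 higher and 1 lower, and 6 in cKO mice, 5 higher and 1 lower, which is 16.7% and 33.3% of the list. Pabpc1, the poly(A)-binding protein, rose by 0.52 in controls and 0.38 in cKO mice (FDR 0.0154 and 0.0453), and Eif3f, a subunit of an initiation factor, by 0.25 and 0.36 (FDR 0.0313 and 0.00904). Tpt1, a growth-related protein, fell by 0.20 in controls and by 0.42 in cKO mice (FDR 0.0377 and 0.00490).

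Of 34 ribosome biogenesis genes, 1 was called in controls and 8 in cKO mice, 5 higher and 3 lower, which is 2.94% and 23.5% of the list. Rrn3, the initiation factor of RNA polymerase I, fell by 0.28 in controls (FDR 0.0417 in the authors' deposited table). In cKO mice Nob1, which cleaves the precursor of the small subunit RNA, rose by 0.79 (FDR 0.00709), and Polr1b, a subunit of RNA polymerase I, fell by 0.33 (FDR 0.0312). Of 19 genes of mTORC1 and its control of TOP mRNAs, 1 was called in controls and 4 in cKO mice, all higher, which is 5.26% and 21.1% of the list. Larp1, which binds TOP mRNAs, rose by 0.24 in controls (FDR 0.0429) and was at 0.18 in cKO mice (FDR 0.0534). Rps6kb2, an S6 kinase, rose by 0.44 in cKO mice (FDR 0.00718). The other calls of this list in cKO mice were Myc, Tsc2 and Eif4ebp1. They were at 1.05 ± 0.28, 0.27 ± 0.08 and 0.68 ± 0.20 (FDR 0.0320, 0.0359 and 0.0429). Back-calculated log2 CPM in cKO Saline and cKO LPS mice was low for Myc (0.25 and 1.29) and Eif4ebp1 (1.11 and 1.78). Whether the activity of mTORC1 changed was not tested. None of the genes of these lists was called between genotypes after LPS. Mtor, the kinase itself, was not called in any table.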

How the data were processed

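Per the labels' protocols, ribosomal RNA was depleted and a stranded kit was used. The submitters' processing notes name edgeR 3.30.3, STAR, RSEM, cutadapt 3.5 and the build GRCm39, without a stated role, order or gene filter. Per the file headers, the authors deposited a mean log2 CPM, a log2 fold change, an F statistic (treated as a score), a p-value and an FDR for each of 13784 genes in 3 tables, of which 757 rows have no symbol. Values per library were not analysed here, so the design's edgeR refit on counts was not made and the authors' own test was used.

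The headers give no direction. Read as LPS minus saline and cKO minus control, back-calculated levels of the LPS groups differed between tables by an SD over genes of 0.0537 and 0.0503; with any sign turned, the larger SD was at least 0.226. SE is the absolute log2 fold change over the root of F. The implied residual degrees of freedom were 9.85, 9.76 and 8.66. Back-calculated levels assume libraries of equal weight. Differences of responses used SEs from the normal quantile of each p-value.

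Members, gene lists and tests were chosen with earlier results of these data known. Members named were the largest calls in each direction, the 3 lowest p-values, the extremes, the stalk genes, Rpsa, Rps6 and the paralogs. Others named (Rps2, Rps16-ps2, Rps6-ps4, Rpl3-ps1, the remaining calls, the members below 0, Mtor) were chosen after their values were seen. Some items that the rule names are not reported here. From the other lists, up to 4 called genes by FDR were eligible. Transcript lengths, GC content and shared 50-base words came from GENCODE M21 transcripts, and promoter windows from RefSeq, both on GRCm38.p6; all 81 members had a length and GC value.

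Alternatives were a log2 CPM minimum of 1, an FDR of 0.1, a fold of 1.2, recentring, removal of a trend on GC content and length, and other member sets. The trend was computed in 3 forms with its counts seen each time: a first trimming failed on simulated data and was replaced, and centring on the median was chosen after the values were seen, so the form without it is given beside it. Calculations used Python 3.11.15, numpy 2.4.6, scipy 1.17.1 and pandas 2.3.3, and were tested on simulated data.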

Additional observations from a re-analysis of the deposited data

How the results depend on the processing

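No paired analysis was possible because the deposited tables hold no values per library; leaving out each replicate and the replicate block were not run for the same reason, and no result could be checked against a single mouse. In controls the count of called members was 1; it was 6 at an FDR of 0.1 (4 higher, 2 lower), 0 with a minimum fold of 1.2, 2 without the trend on GC content and length, and 3 with its mean level removed too (2 higher, 1 lower). In cKO mice the count was 13; it was 21 at an FDR of 0.1 (19 higher, 2 lower), 7 with a fold of 1.2, 10 with the trend removed (10 higher, 0 lower) and 8 with its mean level removed too (4 higher, 4 lower). This last form and the member sets without Rps16 or with under 50% shared words were chosen after seeing the data. The share of all genes called under each alternative is not given here, so these counts are not shown to be particular to the family. Between genotypes and for the difference of responses the count was 0 under every alternative run. Values that changed sign were all uncalled: Rps27l was at 0.0839 in controls, 0.0387 in cKO mice and -0.0314 between genotypes with the trend removed, at 0.0535 in controls and -0.0345 between genotypes with its mean level removed too, and at -0.00032 between genotypes after recentring. Rplp0 and Rpsa were at -0.0146 and -0.0030 in controls with the mean level removed. Depth per library is unknown, so what it limits was not tested.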
